A study of Homo sapiens with 6 samples.

Results

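Collagens, laminins and integrins were described as 1 set of 82 genes in A375, an established line of human melanoma cells. The members were the genes of the deposited table whose symbols name a collagen chain (44 genes), a laminin chain (12 genes) or an integrin subunit (26 genes), out of 28395 genes in all. The control cells (OLO) had received 0.01% olive oil and the treated cells (OZO) 0.01% ozonated olive oil, each for 6 h, and 3 RNA sequencing libraries were made of each. All libraries came from the same line, whose genotype is labelled wild type, so every level below is that of a single cultured line without stromal cells of its tumor. The table gives 1 mean level per gene over all 6 libraries, both oils together, and single libraries were not analysed here. A gene that differed between the oils is therefore shown at its average, the levels carry no spread between libraries, and no comparison of OZO with OLO is made.

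Collagens are built from 3 alpha chains wound into a triple helix. Some form fibrils, some coat fibrils, and type IV forms the sheet-like network of basement membranes. Laminins are cross-shaped trimers of 1 alpha, 1 beta and 1 gamma chain that polymerise on the cell surface and organise the basement membrane. Integrins are receptors of 1 alpha and 1 beta subunit that bind these matrix proteins outside the cell and connect to the actin cytoskeleton inside it. In melanoma, integrins and the basement membrane are known for their part in the step from growth within the epidermis to invasion of the dermis.

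Several members lie side by side in the genome, and the type IV collagen genes are known for head-to-head pairs that start from a shared promoter. The stretch between the starts of each pair is shown because the levels of the partners could be compared, and the 250 bases before LAMB1, LAMC1 and LAMB4 are shown because LAMB1 and LAMC1 were the laminin genes with the highest levels and LAMB4 is the weakly read neighbour of LAMB1. The sequences are those of RefSeq on GRCh38.p14, written 5' to 3' on the strand of the first gene named. Capitals mark a pair of promoter motifs, each searched on both strands. The first is the GC box, spelled GGGCGG, to which the factor Sp1 is known to bind. The other is the CCAAT box, whose name gives its letters and which NF-Y is known to bind. The TATA box, spelled TATAAA, was searched in the same way and was found in none of the 6 stretches. The COL4A5 line shows 250 of the 379 bases between the starts of COL4A6 and COL4A5, those nearest COL4A5.
COL4A2 and COL4A1 (chr13:110307158-110307283, plus strand): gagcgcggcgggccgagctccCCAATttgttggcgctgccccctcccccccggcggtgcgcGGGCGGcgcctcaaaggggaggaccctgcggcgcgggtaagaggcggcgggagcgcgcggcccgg
COL4A3 and COL4A4 (chr2:227164489-227164623, plus strand): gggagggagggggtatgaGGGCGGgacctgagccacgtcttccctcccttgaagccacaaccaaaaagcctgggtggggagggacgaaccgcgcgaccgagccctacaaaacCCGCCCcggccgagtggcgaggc
COL4A5 and COL4A6 (chrX:108439588-108439837, plus strand): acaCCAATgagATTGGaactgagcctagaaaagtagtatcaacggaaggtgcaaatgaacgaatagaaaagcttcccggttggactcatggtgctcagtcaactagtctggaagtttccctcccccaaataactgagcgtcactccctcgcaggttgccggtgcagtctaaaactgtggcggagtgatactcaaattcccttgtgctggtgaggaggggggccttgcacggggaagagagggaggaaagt
LAMB1 (chr7:108003162-108003411, minus strand): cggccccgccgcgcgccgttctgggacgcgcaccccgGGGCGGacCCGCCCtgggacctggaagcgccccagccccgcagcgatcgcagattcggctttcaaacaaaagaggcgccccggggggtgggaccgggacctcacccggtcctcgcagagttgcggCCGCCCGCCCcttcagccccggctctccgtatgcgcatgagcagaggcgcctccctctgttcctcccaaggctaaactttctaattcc
LAMC1 (chr1:183023170-183023419, plus strand): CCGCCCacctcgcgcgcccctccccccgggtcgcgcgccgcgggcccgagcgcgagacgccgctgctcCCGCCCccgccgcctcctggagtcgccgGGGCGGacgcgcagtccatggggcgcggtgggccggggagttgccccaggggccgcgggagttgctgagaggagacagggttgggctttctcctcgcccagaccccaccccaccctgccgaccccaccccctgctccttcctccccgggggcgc
LAMB4 (chr7:108130362-108130611, minus strand): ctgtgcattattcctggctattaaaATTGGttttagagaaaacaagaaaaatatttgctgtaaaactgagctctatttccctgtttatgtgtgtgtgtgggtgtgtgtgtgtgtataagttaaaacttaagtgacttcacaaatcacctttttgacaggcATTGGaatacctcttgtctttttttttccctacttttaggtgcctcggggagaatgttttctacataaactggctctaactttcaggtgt
The 126 bases between COL4A1 and COL4A2 held 1 GC box and 1 CCAAT box, and G and C made up 80.2% of them. The 135 bases between the ends of the COL4A4 and COL4A3 genes in RefSeq held 2 GC boxes and no CCAAT box. The start of COL4A4 is less certain, since the RefSeq promoter table places it inside the gene, at 227164205. The COL4A5 stretch held no GC box and 2 CCAAT boxes. LAMB1 had 4 GC boxes, of which the last 2 overlap in a single run of capitals, LAMC1 had 3, and LAMB4 had none and 2 CCAAT boxes. Among the 27305 promoters of the RefSeq table, 34.5% held a GC box and 21.9% a CCAAT box in the last 126 bases before the start, and 42.2% and 33.0% held them in 250 bases. Such matches are common, and a match is only a description of the letters.

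The depth behind the levels could be read from the table itself. The lowest mean, -5.20 log2 CPM (counts scaled to the size of the library), belongs to genes without a read in any library, since 0.5 is added to each count before the logarithm. On this scale the geometric mean library size was 18409903 reads. A level was converted into implied reads, the geometric mean count per library that would give it. Members with at least 10 implied reads, which is -0.81 log2 CPM, are termed read and the others weakly read. Of the 82 members, 52 were read (63.4%), beside 13773 of 28395 genes in all (48.5%). The 28395 genes include non-coding ones, while all members code for protein. Of 18332 protein-coding genes, 67.1% were read. These leave out 783 with copies on alternate contigs, described below, of which 17.4% were read. The read share was 23 of 44 for collagens (52.3%), 10 of 12 for laminins (83.3%) and 19 of 26 for integrins (73.1%). None of the members was without a read, beside 7012 of all genes and 11.2% of those 18332 protein-coding genes, though 16 members were under 1 implied read. A longer transcript gives more reads at the same level per kb, and the part of length in these shares was not tested. By level, 15 members had 1000 or more implied reads, 19 had 100 to under 1000, 18 had 10 to under 100 and 30 had fewer than 10.

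**Figure D1:**
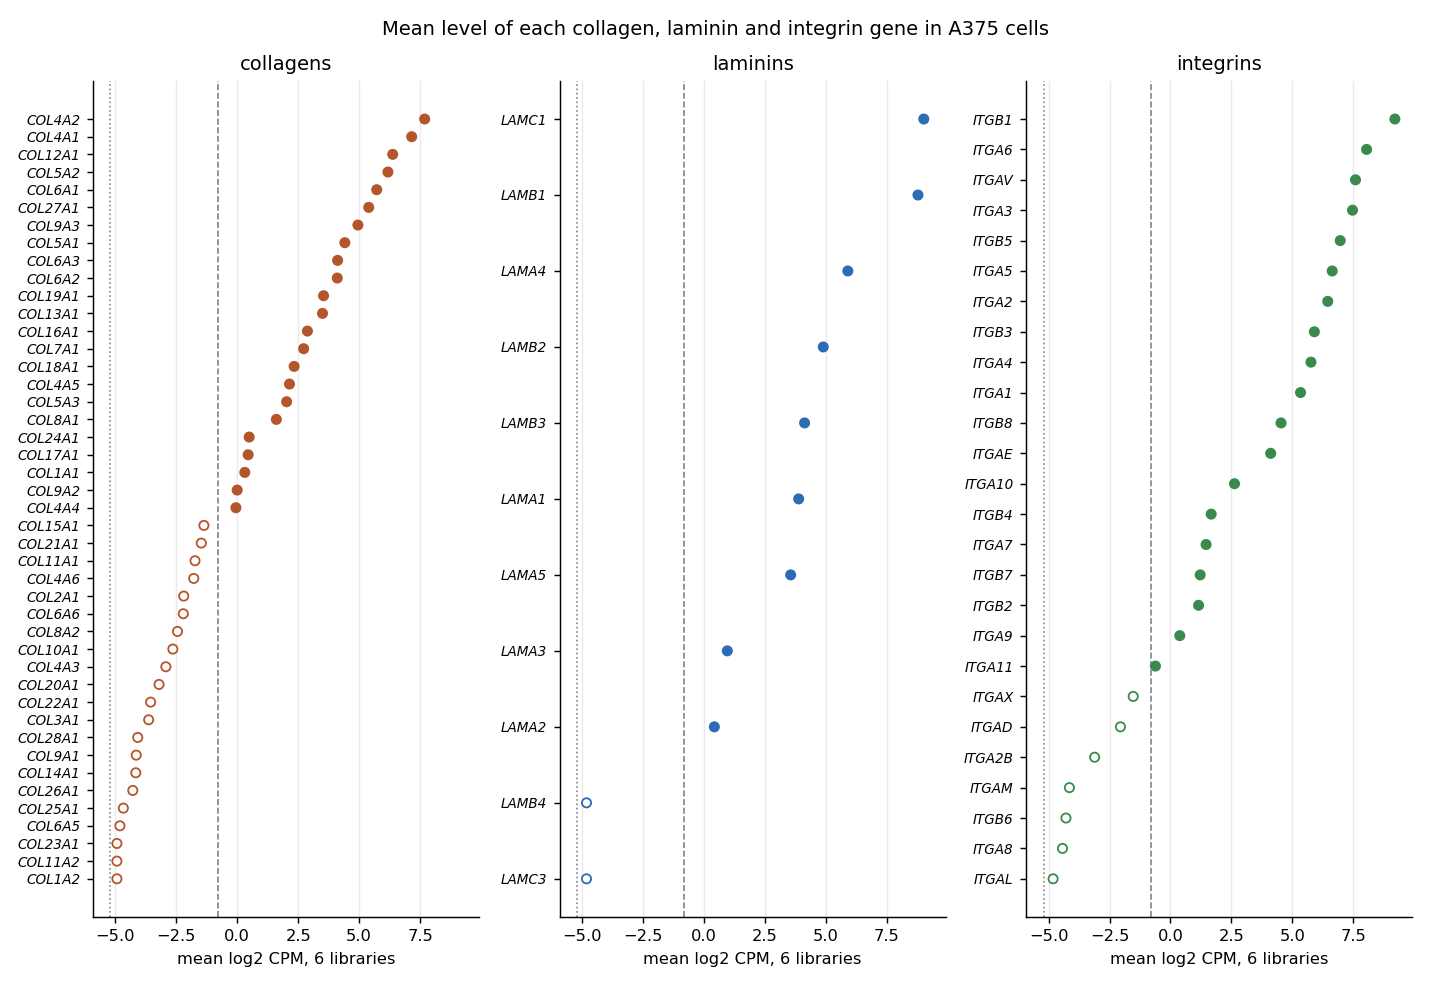
Mean log2 CPM over the 6 libraries (horizontal axis) of each collagen, laminin and integrin gene, ordered by level within its family. The plot shows 81 of the 82 members. Filled points are read and open points the 30 weakly read members, the dashed line marks 10 implied reads and the dotted line the level of a gene without reads. The weakly read members include 21 of the 44 collagens but 2 of the 12 laminins.

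The reads of the set were concentrated in a few genes. Integrins held 48.7% of the implied reads summed over members, laminins 30.6% and collagens 20.8%. ITGB1, the beta subunit shared by the largest integrin subfamily, alone held 16.4%, LAMC1 14.4%, LAMB1 12.2% and ITGA6 7.34%, so that these 4 genes reached 50.5%. These shares count reads and are not corrected for length.

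Levels of different genes can be compared only per kb, so values in log2 CPM or reads below order genes by reads alone. The main length was that of all exons of the gene in GENCODE 44. It can exceed that of any single transcript, up to 3.39 times among members. Values per kb of the longest transcript are therefore given beside it for some comparisons. The annotation used in counting is not given in the sources used here, so the counted length of a gene may differ from these lengths. The median level of the read integrins was 1.39 log2 CPM per kb of exon, that of the read laminins 0.91 and that of the read collagens -0.31. The median of all read genes was 2.16, above all 3 families. The minimum is set in reads, so a long gene passes it at a lower level per kb, as LAMA2 did at -4.29 per kb of exon. The part of gene length in the family medians was not tested. Per kb of the longest transcript the medians were 2.18, 1.27 and 0.44, beside 2.68 for all read genes, and the order of the families was the same. Within each family the read members spread over more than 7 log2 units per kb, as the plot by 2 gene lengths shows.

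**Figure D2:**
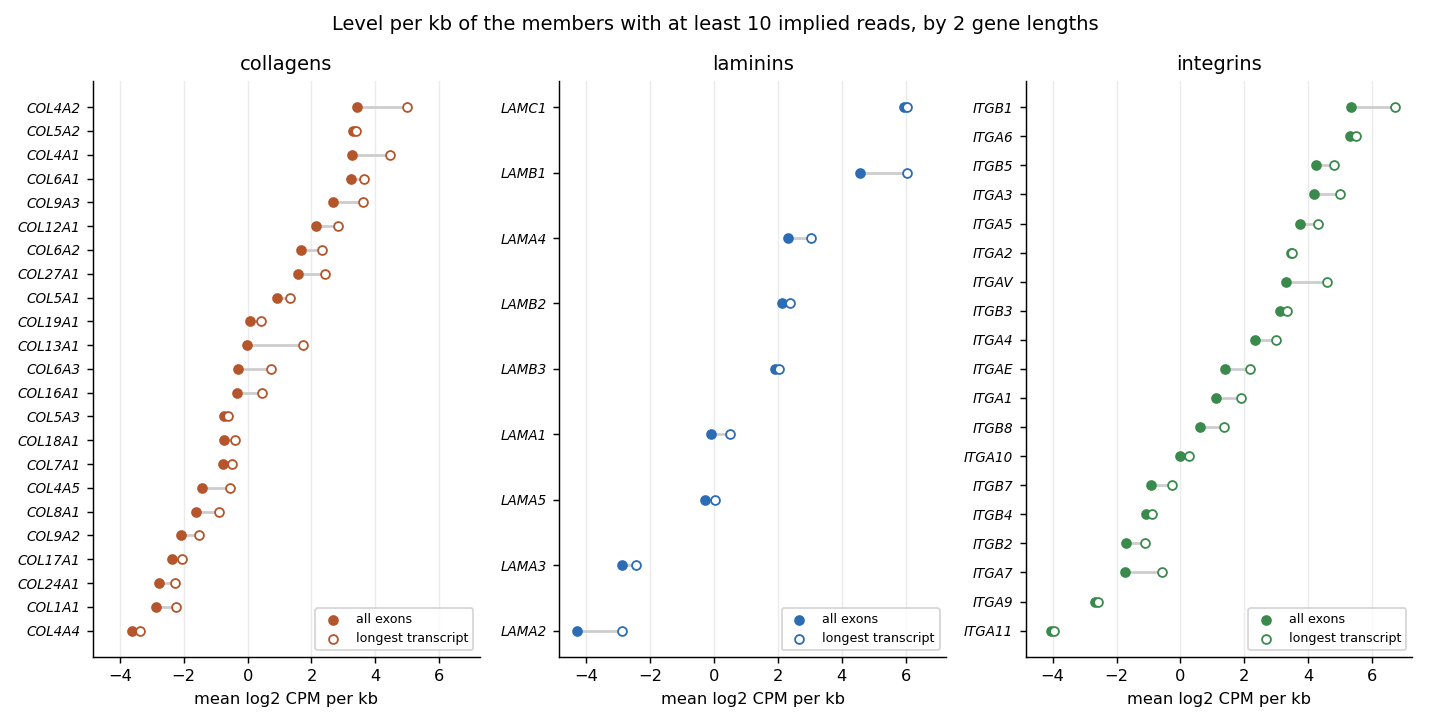
Mean log2 CPM per kb (horizontal axis) of 51 of the 52 read members by family, with the length of all exons (filled points) and of the longest transcript (open points). The distance between the points of a gene is the effect of the length alone, and it is widest for genes such as COL13A1, COL4A2, LAMB1 and ITGB1.

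Among the laminins, the gamma1 and beta1 chains stood far above the rest. LAMC1 (chromosome 1, 183023420 to 183145592), the gamma chain of most laminin trimers, had a mean of 9.02 log2 CPM, equal to 9566 implied reads. LAMB1 (chromosome 7, 107923799 to 108003161), the most widely used beta chain, had 8.78 log2 CPM and 8101 implied reads. Per kb of exon LAMC1 was at 5.94 and LAMB1 at 4.56 log2 CPM, while per kb of the longest transcript they were level at 6.03 each. Per kb of coding sequence LAMB1 minus LAMC1 was -0.39, so the size of the difference follows the length that is chosen. The counting error of either mean was at most 0.013 log2 units (half-width of the 95% interval), which leaves out the spread between libraries. LAMB2, the beta chain of muscle and kidney basement membranes, was at 4.90 log2 CPM and LAMB3, the beta chain of the epithelial laminin that anchors keratinocytes, at 4.13.

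The alpha chains, which carry most of the binding sites for integrins, were lower than LAMC1 and LAMB1, and all 5 were read. LAMA4, the alpha chain of vessel, fat and muscle basement membranes, led with 5.90 log2 CPM and 1102 implied reads. LAMA1, the alpha chain of early embryonic laminin, had 3.89 log2 CPM (272.0 reads) and LAMA5, that of most adult epithelia, 3.56 (217 reads). LAMA3, an alpha chain of epithelia, had 0.96 (35.4 reads) and LAMA2, the muscle chain, 0.43 (24.3 reads). Per kb of exon LAMA4 was 2.60 log2 units above LAMA5, while LAMA1 was 0.18 above LAMA5. LAMB4 and LAMC3 were weakly read, with 2 reads each in the whole set of 6 libraries, both in 1 library.

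Set against the 14 laminin trimers listed from general knowledge, 11 had every chain read. In 10 of these 11 the alpha chain had the lowest level per kb, whether the length was that of all exons, the longest transcript or the longest coding sequence. The exception was alpha4 beta2 gamma1, in which LAMB2 was lowest. The median gap between the highest and the lowest chain was 6.22 log2 units per kb of exon. It was smallest for alpha4 beta1 gamma1, with LAMA4 at 2.32, LAMB1 at 4.56 and LAMC1 at 5.94 log2 CPM per kb, a gap of 3.62 or 12.3-fold. The 11 trimers share chains, and 10 of them hold LAMC1, so they are not separate observations. The 3 trimers with gamma3 could not be compared because LAMC3 was weakly read.

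**Figure D3:**
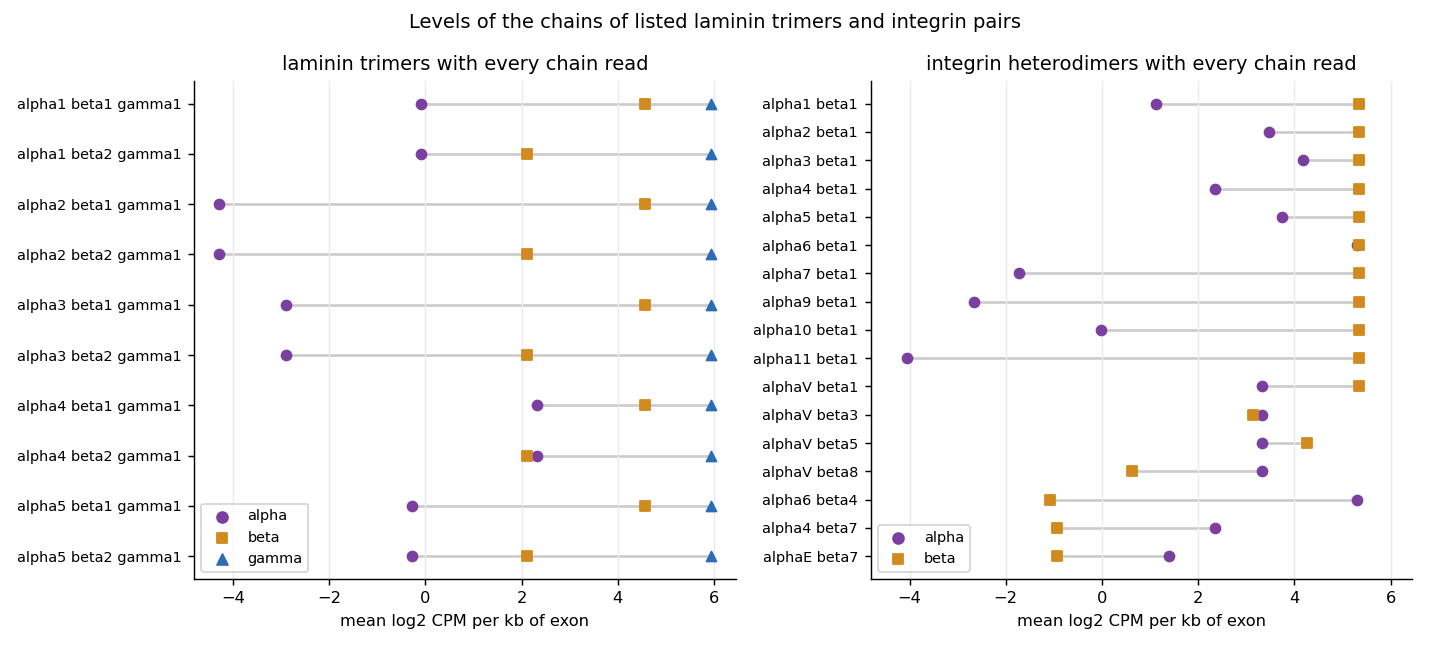
Mean log2 CPM per kb of exon (horizontal axis) of the chains of 10 of the 11 laminin trimers and of the 17 integrin pairs in which every chain was read, 1 line per trimer or pair. Circles are alpha, squares beta and triangles gamma chains. In 9 of the 10 trimers shown the alpha chain is the leftmost symbol. In the 11 pairs with beta1 the square, which is the same ITGB1 value each time, lies to the right.

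ITGB1 (chromosome 10, 32900318 to 32958230) was the member with the most reads, at 9.21 log2 CPM and 10875 implied reads. Per kb of exon it was at 5.34 log2 CPM, 0.60 below LAMC1, but per kb of the longest transcript it was 0.68 above it. Among the other beta subunits, ITGB5, a vitronectin receptor chain, was at 6.96 log2 CPM (2297 reads), ITGB3, the partner of alphaV known from invasive melanoma and of alphaIIb in platelets, at 5.90 (1101 reads) and ITGB8, which binds latent TGF-beta with alphaV, at 4.54 (427 reads). ITGB4, the hemidesmosome subunit, was at 1.67 (58.1 reads), ITGB7 of lymphocytes at 1.22 (42.3 reads) and ITGB2, the leukocyte beta subunit, at 1.15 (40.4 reads). Per kb of exon ITGB7 (-0.94) was above ITGB4 (-1.09). ITGB6, an epithelial subunit, was weakly read with 0.44 implied reads.

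Of the 3 laminin-binding alpha subunits, 2 were highly read. ITGA6 was at 8.05 log2 CPM (4862 reads) and ITGA3 at 7.47 (3260 reads), while the third of them, ITGA7, was at 1.46 (50.2 reads). By length of exon, ITGA6 stood at 5.31 log2 CPM per kb and ITGA3 at 4.18, the highest levels of the 18 alpha subunits, though per kb of coding sequence ITGAV (5.94) was above ITGA3 (5.79). Of the subunits that bind RGD motifs in fibronectin and vitronectin, ITGAV was at 7.59 log2 CPM (3549 reads) and ITGA5 at 6.64 (1829 reads), and ITGA8 and ITGA2B were weakly read. All 4 collagen-binding subunits were read. ITGA2 was at 6.45 log2 CPM (1611 reads), ITGA1 at 5.34 (743 reads) and ITGA10 at 2.63 (113 reads). ITGA11, at -0.62 (11.5 reads), was the member just inside the minimum. ITGA4, a fibronectin and VCAM1 receptor chain, was at 5.76 (999 reads) and ITGA9 at 0.38 (23.5 reads). Of the 5 leukocyte alpha subunits, ITGAE was read at 4.11 (318 reads), and ITGAX, ITGAD, ITGAM and ITGAL were weakly read.

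Of the 24 integrin pairs listed, 17 had both subunits read, 11 of them with ITGB1. ITGB1 was above its alpha partner in 11 of 11 pairs under all 3 lengths. The 11 pairs share ITGB1, the highest integrin under all 3 lengths, so they are not separate observations. The nearest partner was ITGA6, 0.04 log2 units lower per kb of exon but 1.21 lower per kb of the longest transcript, and the farthest was ITGA11, 9.40 lower per kb of exon. Added up on the linear scale, the alpha subunits that can pair with ITGB1 came to 249% of ITGB1 per kb of exon, 140% per kb of the longest transcript and 119% per kb of coding sequence. ITGA4, ITGA6 and ITGAV, which have other partners as well, are in that sum. For alphaV, the other beta partners ITGB3, ITGB5, ITGB6 and ITGB8 together came to 295%, 168% and 143% of ITGAV under the same lengths. ITGAV was 0.94 log2 units below ITGB5 per kb of exon and 0.21 below per kb of the longest transcript, but 0.24 above per kb of coding sequence. It was above ITGB3 under all 3 lengths, by 0.19, 1.27 and 1.28 in the same order. ITGB4 was 6.39 below ITGA6 and ITGB7 3.29 below ITGA4. These are levels of messenger RNA, and the amount of receptor at the cell surface was not measured.

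The collagens with the most reads were a pair of chains of the type IV network of basement membranes. COL4A2 (chromosome 13, 110307284 to 110513209) was at 7.69 log2 CPM (3794 reads) and COL4A1 (chromosome 13, 110148963 to 110307157) at 7.15 (2623 reads). They were at 3.42 and 3.28 log2 CPM per kb of exon, a gap of 0.14, which was 0.55 per kb of the longest transcript. By length of exon, COL5A2 (3.31) lay between COL4A2 and COL4A1, and COL6A1 (3.25) just below them. Per kb of the longest transcript COL4A1 (4.45) was above COL6A1 (3.65) and COL5A2 (3.41). The other type IV chains were much lower, with COL4A5 at 2.14 log2 CPM (80.8 reads) and COL4A4 at -0.06 (17.2 reads), while COL4A6 and COL4A3 were weakly read.

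Of the 11 fibril-forming chains, 6 were read, led by those of type V, which helps to start fibrils, and type XXVII. COL5A2 was at 6.18 log2 CPM (1334 reads), COL27A1 at 5.39 (773 reads), COL5A1 at 4.41 (391 reads), COL5A3 at 2.02 (74.4 reads) and COL24A1 at 0.49 (25.3 reads). COL1A1, the main chain of dermal and bone fibrils, was at 0.31 (22.3 reads), and its partner COL1A2 had 1 read in all 6 libraries together. COL3A1, COL2A1, COL11A1 and COL11A2 were weakly read as well. COL5A1 was 2.38 log2 units per kb of exon below COL5A2, although the usual type V trimer holds 2 alpha1 chains and 1 alpha2 chain.

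Of the chains that coat fibrils, 5 of 10 were read, with COL12A1 at 6.38 log2 CPM (1528 reads), COL9A3 at 4.95 (568 reads), COL19A1 at 3.54 (213 reads), COL16A1 at 2.88 (135 reads) and COL9A2 at -0.0046 (17.9 reads). COL9A3 was above COL12A1 per kb of exon, at 2.67 against 2.14 log2 CPM. Type IX collagen is a trimer of the alpha1, alpha2 and alpha3 chains of cartilage, and its alpha1 chain COL9A1 was weakly read. The alpha1, alpha2 and alpha3 chains of type VI, a pericellular collagen of beaded filaments, were read, while its chains COL6A5 and COL6A6 were weakly read. COL6A1 was at 5.72 log2 CPM (970.0 reads), COL6A3 at 4.12 (319 reads) and COL6A2 at 4.10 (316 reads). Per kb of exon COL6A1, COL6A3 and COL6A2 lay at 3.25, -0.31 and 1.69 log2 CPM, so that COL6A3 was 3.56 below COL6A1. The remaining read collagens were COL13A1 (3.50 log2 CPM, 207 reads) and COL17A1 (0.45, 24.6 reads), which span the membrane, COL7A1 of anchoring fibrils (2.72, 121 reads), COL18A1, the source of endostatin (2.33, 92.2 reads), and COL8A1 (1.60, 55.4 reads). Of the 9 collagen trimers of more than 1 kind of chain that were listed, 3 had every chain read, those of alpha1 and alpha2 of type IV, alpha1 and alpha2 of type V, and alpha1, alpha2 and alpha3 of type VI.

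The 30 weakly read members are given apart, since their levels rest on few reads. COL15A1, at 6.62 implied reads, was the member just outside the minimum. With it, COL21A1 (6.12), ITGAX (5.88), COL11A1 (5.03), COL4A6 (4.84), ITGAD (3.94), COL2A1 (3.52) and COL6A6 (3.46) made up 8 members between 3 and 10 implied reads. COL8A2, COL10A1, COL4A3, ITGA2B, COL20A1 and COL22A1 lay between 1.07 and 2.86. The other 16 were under 1 implied read. For COL1A2, COL11A2 and COL23A1 the level allowed exactly 1 read in all 6 libraries, and for COL6A5, ITGAL, LAMB4 and LAMC3 exactly 2 reads, both in 1 library. The remaining 9, COL3A1, COL28A1, COL9A1, COL14A1, COL26A1, COL25A1, ITGAM, ITGB6 and ITGA8, had 0.22 to 0.98. A level of this kind does not show that a gene is silent.

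COL11A2 has a further limit. It lies in the histocompatibility region of chromosome 6 (33162694 to 33193519), of which the hg38 assembly holds extra copies among its 261 alternate contigs. Of the 31-base words taken at even spacing from its longest transcript, 67.2% occur on such a contig, while no other member was above 6.78%. Among protein-coding genes with at least 50% of their words on alternate contigs, 17.4% of 783 were read and 51.6% had no read, beside 67.1% and 11.2% of the 18332 genes below 50%. Whether the alignment used the alternate contigs is not given in the sources used here, and the part of the copies in the level of COL11A2 was not tested. The threshold of 50% was chosen after the levels were seen. The groups above and below it hold different genes, and other differences between them were not tested.

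In the RefSeq order of protein-coding genes, 12 pairs of members were direct neighbours, and their levels ranged from alike to far apart. COL4A1 and COL4A2 differed by 0.14 log2 units per kb of exon, COL6A1 and COL6A2 by 1.56 and ITGA1 and ITGA2 by 2.35. The other head-to-head type IV pairs, whose shared stretches are printed above, were COL4A4, 2.93 above COL4A3, and COL4A5, 3.57 above COL4A6, with COL4A3 and COL4A6 weakly read. COL19A1 was 7.59 above COL9A1 and COL5A2 9.70 above COL3A1, with COL9A1 and COL3A1 weakly read as well. The widest gap was that of LAMB1 and LAMB4, with 8101 and 0.15 implied reads and 12.2 log2 units per kb of exon. COL6A5 with COL6A6, and ITGAM, ITGAX and ITGAD in a row on chromosome 16, were weakly read throughout.

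**Figure D4:**
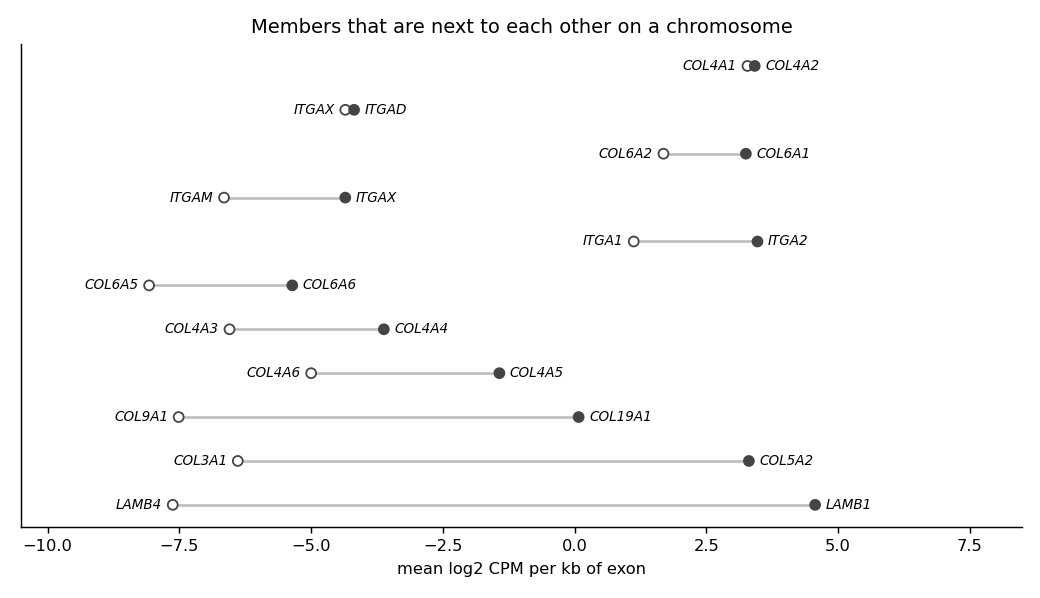
Mean log2 CPM per kb of exon (horizontal axis) of 11 of the 12 pairs of members that are neighbours among protein-coding genes, with the lower gene of each pair as an open and the higher as a filled point. The pairs are ordered by their gap, from 0.14 for COL4A1 and COL4A2 to 12.2 for LAMB1 and LAMB4.

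A RefSeq promoter window was found for 58 of the members. CpG-rich promoters, with an observed to expected CpG ratio of at least 0.6 in the 250 bases before the start, belonged to 19 of the 39 read members with a window (48.7%), beside 79.1% of 10835 read genes in all. Among weakly read members they belonged to 8 of 19 (42.1%), beside 30.99% of 7469 weakly read genes. The ratio was 0.92 for LAMB1, 0.82 for LAMC1 and 0.83 for ITGB1. It was 0.50 for ITGA6 and 0.39 for LAMA4, which were read at high levels as well, and 0.12 for LAMB4.

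Lists of related genes of matrix and adhesion had higher read shares than the 82 members together (63.4%), with laminins alone at 83.3%. The lists were picked by name with earlier results known, while the families hold every chain, so the shares are not like for like. Of 27 genes of collagen processing, 23 were read, including P4HB, a subunit of the prolyl hydroxylase that stabilises the helix (9303 reads), PLOD2, a lysyl hydroxylase (3783 reads), and SERPINH1, the collagen chaperone HSP47 (942 reads). Of 18 other matrix proteins, 16 were read, with THBS1 (12950 reads), SPARC (10550 reads), TNC (6222 reads) and FN1 (3001 reads) among them. Of 13 other matrix receptors, 12 were read, including CD44, the hyaluronan receptor, at 13180 reads. DDR2, a collagen receptor kinase, had 4085 reads, and its relative DDR1 had none, with 87.8% of its words on alternate contigs. Of 20 adaptors that connect integrins to actin, 19 were read, among them TLN1 (5268 reads) and VCL (3316 reads). The median of each list per kb of exon, weakly read genes included, was 2.77, 1.12, 3.42 and 3.03 log2 CPM in this order, beside -3.24 for collagens, -0.19 for laminins and -0.48 for integrins.

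**Figure D5:**
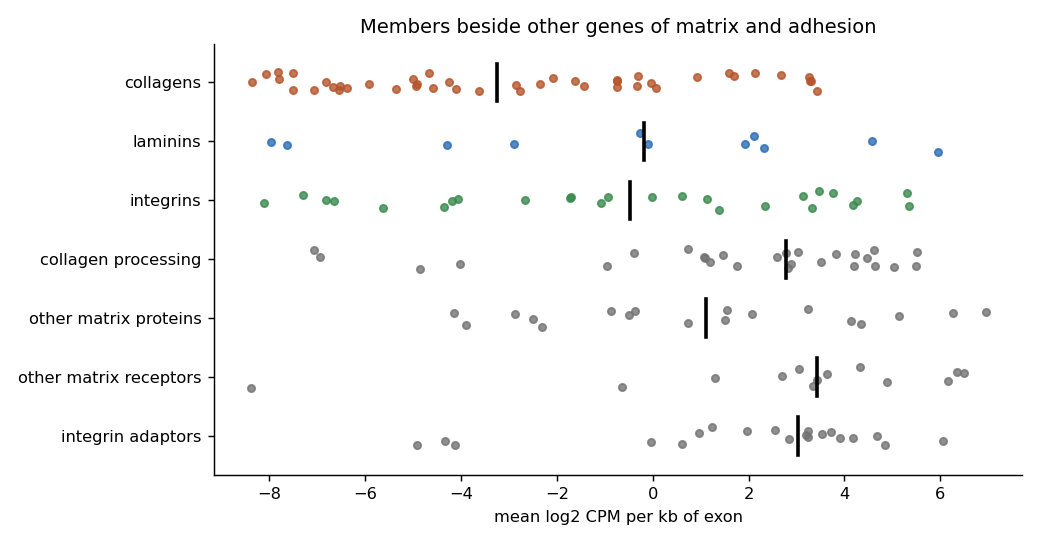
Mean log2 CPM per kb of exon (horizontal axis) of 81 of the 82 genes of the 3 families (colored) and of 4 lists of related genes (gray), weakly read genes included, with the median over all genes of each as a black bar. Points are scattered vertically for display only. The collagen median, -3.24, lies lowest of the 7.

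The markers of melanoma cells were partly present. Of 12 melanocyte and melanoma markers, 9 were read, led by AXL (4915 reads, 8.06 log2 CPM) and SOX10 (919 reads, 5.64 log2 CPM). The median of these 9 was far lower, at 2.215 log2 CPM, beside 1.02 for the read fibroblast markers. The other 3 were weakly read, among them TYR, the pigment enzyme, with no read, and PMEL with 5.75. Of markers of other cell types, 4 of 5 for fibroblasts were read with at most 102 reads, 3 of 5 for keratinocytes and epithelium, with KRT18 at 3031 reads and CDH1 at 1.34, 2 of 4 for endothelium with at most 33.4 reads, and 1 of 6 for leukocytes and platelets, which was CD68 at 603 reads, beside PTPRC at 1.07 and GP9 and PF4 at 0. The part of other cells in the levels of the members was not tested. Genes named as antisense partners of members were listed 8 times, at 0 to 5.67 implied reads. The library kit keeps strand, but the strand setting of the counting is not given in the sources used here, so reads of a member and of its antisense partner may not have been separated.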

How the data were processed

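RNA from 6 libraries of A375 cells, 3 OLO and 3 OZO, was sequenced in paired ends. The submitters' processing notes name hg38, HISAT2 2.1.0, featureCounts 2.1.1 and limma 3.58.1. The authors deposited 1 table of the limma-voom comparison, with 28395 genes. Of its values, the deposited mean log2 CPM over all libraries was used. The other numeric columns hold the fold change of treated against control cells, its t, p, adjusted p and log odds, which are the authors' own comparison, and none of them was used. No test was therefore run and no p-value is given.

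Implied reads were computed as 0.5 x 2 to the power of the difference from the lowest level, minus 0.5. Over the 7610 genes with a read but fewer than 10 implied reads, 100% of the recovered products were odd whole numbers within an absolute tolerance of 0.001. They are geometric means over libraries, so the depth of each library is unknown. Intervals cover counting error only. Simulated counts, turned into levels by the same formula, were recovered. That run checks the arithmetic only and not how the deposited mean was made. Lengths came from GENCODE 44 by Ensembl ID (all 82 members and 13313 of the 13773 read genes matched), positions, neighbours and promoters from RefSeq. Python 3.11.15 with pandas 2.3.3 and numpy 2.4.6 was used.

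The members, gene lists and assemblies were chosen with earlier results of these data known. Every member enters the counts, some items are not reported here by name, and at most 4 genes of each other list are named. Alternatives were minimums of 3 or 30 reads or 0 log2 CPM, 2 other gene lengths, and families without the minimum.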

Additional observations from a re-analysis of the deposited data

How the results depend on the processing

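The number of read members was 60 with a minimum of 3 implied reads, 44 with 30 and 49 with a mean of at least 0 log2 CPM, beside 52, and stayed within 1.5 times for each family as well. Family medians and gaps depend on the length used. Per kb of the longest transcript and per kb of coding sequence, the medians of the read members were 0.44 and 0.86 for collagens, 1.27 and 1.4997 for laminins and 2.18 and 3.51 for integrins. With members of at least 3 implied reads they were -0.75 for collagens and 1.12 for integrins, and with all members -3.24 for collagens, -0.19 for laminins and -0.48 for integrins, so that laminins then stood above integrins. The median gaps between chains under the same 2 lengths were 2.07 and 2.06 for collagen trimers, 3.24 and 3.27 for integrin pairs and 5.99 and 6.66 for laminin trimers. Differences that turned were ITGAV minus ITGB5, which was 0.24 per kb of coding sequence, and ITGB1 minus LAMC1, which was 0.68 per kb of the longest transcript and 1.15 per kb of coding sequence. For these differences the alternatives differ in the length alone.

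No paired analysis was possible because the table holds no values per library. For the same reason the comparison of OZO with OLO, its fit with the replicate number and the fits without each replicate were not run. A mean without its spread gives only counting error, which was at most 0.34 log2 units (half-width of the 95% interval) for read members.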
